A study of Glycine max with 12 samples.

Results

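The comparison described here is that of heat-stressed with control pods of soybean (Glycine max, cultivar Magellan), chosen by treatment label: 3 heat-stress and 3 control libraries, 6 of the 12 in the study. Plants were inoculated with the nitrogen-fixing bacterium Bradyrhizobium japonicum, raised in growth chambers to the opening of the first flower, and then divided at random among 4 chambers. Control plants were kept at a day temperature of 28 °C and a night temperature of 24 °C and had the full supply of water for transpiration (100%). Heat-stressed plants had the same supply, with 38 °C as the day and 28 °C as the night temperature. The 6 other libraries came from plants given 30% of that water, either at the control temperatures (water deficit, 3 libraries) or at the higher temperatures (combined stress, 3 libraries). Each library was prepared from pods pooled over several plants. Each treatment had its own chamber, so temperature and chamber cannot be told apart, and the labels do not say whether replicates came from different pots.

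A pod is a green fruit wall, which photosynthesises and loses water, around the developing seeds. Plants meet high temperature with the heat shock response, in which heat stress transcription factors switch on genes for molecular chaperones. The small heat shock proteins among these bind unfolding proteins, and the HSP70, HSP90 and HSP100 families refold or disaggregate them. Many of these genes are nearly silent in unstressed tissue. The deposited tables name genes by ID alone, and 0 of the 57147 IDs matched the gene table at hand, so no ID could be assigned to this response and the pod label could not be checked against marker genes. In pooled tissue, fewer cells of a type and less RNA per cell cannot be told apart.

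The counts are reads per gene, and levels are given as CPM, counts scaled to a common library size with composition-based factors. Libraries held between 17310023 and 22258644 counts in heat stress and between 19576901 and 26591115 in control. At this depth 3 counts, taken as the smallest level a library could show, came to between 0.114 and 0.177 CPM in these 6 libraries. Across genes, log2 CPM correlated at 0.948 to 0.959 between control libraries, at 0.901 to 0.926 between heat-stress libraries and at 0.908 to 0.942 between the groups. The heat-stress replicates thus lay farther from each other than some of them lay from control. The median SD over genes was 0.24 on the log2 scale in control and 0.37 in heat stress (n = 3 libraries each).

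In heat stress 438 genes were higher and 296 lower than in control. Together these were 734 of 38737 tested genes, or 1.89%, at an adjusted p under 0.05 in edgeR's quasi-likelihood test. The 438 were 1.13% of the tested genes and the 296 were 0.764%. In 729 of the 734 the 3 heat-stress libraries did not overlap the 3 control libraries, against 19.9% of all tested genes. The 734 were called on these same libraries, so the 729 describe the calls and carry no test. The count depended on the libraries entered: it was 379, 402 and 265 without control replicates 1, 3 and 2, 438 without heat-stress replicate 3, and 425 with only the 6 libraries in the fit. In all 12 fits that each left out 1 library of the study, 164 of the risers and 60 of the fallers were called.

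**Figure D1:**
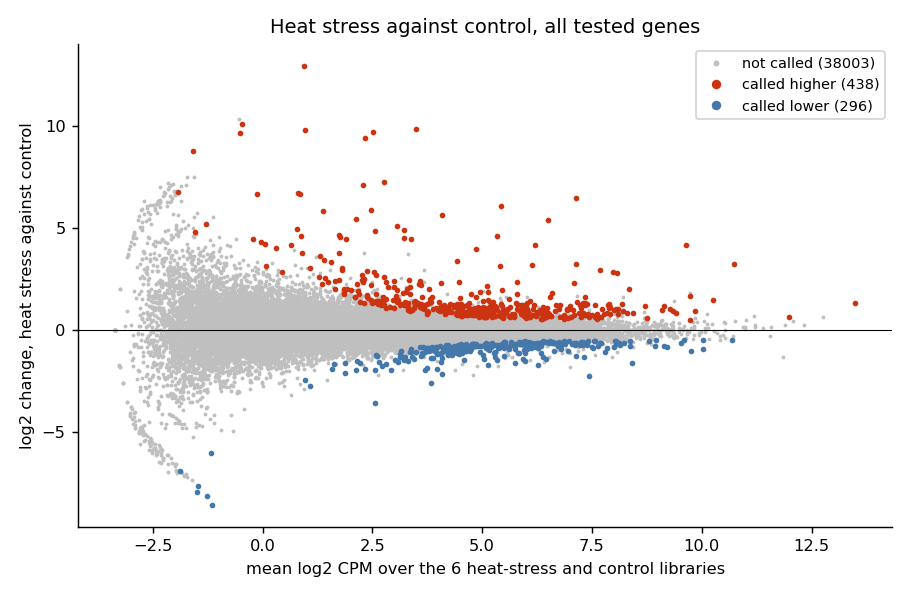
Each point is a tested gene, with its mean log2 CPM over the 6 libraries on the horizontal axis and its log2 change in heat stress against control on the vertical axis. The 438 genes called higher lie over a wide range of levels. Their largest fitted log2 change is 12.92, in a gene with 0 counts in control. Among the 296 called lower, by contrast, the 6 beyond -4 all lie at low levels.

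Large rises were far more frequent than large falls, whereas the median rise and the median fall were closer in size. The median log2 change was 1.10 among the risers and -0.87 among the fallers, against 0.01 over all tested genes. In 5 risers and 5 fallers, 1 group had 0 counts. Setting these genes to the bound given by 3 counts could not move either median, because all of them stayed beyond it. More than 2-fold rises were seen in 255 genes and falls of that size in 106. By the fitted change the numbers were 94 and 13 beyond 4-fold, and 41 and 6 beyond 16-fold. When only genes that averaged 10 CPM or more in their higher group were taken, 28 rose and 0 fell by more than 16-fold. The 6 deep falls started from control means of 0.723 to 2.34 CPM, and 5 of them had 0 counts in every heat-stress library. Against the highest heat-stress floor of 3 counts in a library (0.177 CPM), none of these 5 could be shown to exceed 16-fold. Of the 41 rises, 1 went from 0 counts in control to 0.651 CPM, which is less than 16-fold above the highest control floor (0.154 CPM). The same held for 2 others, with 2 counts over all control libraries and heat-stress means of 0.967 and 1.33 CPM. The calls came mainly from abundant transcripts: 264 risers and 186 fallers stood among the 9684 most abundant tested genes (mean level of at least 24.6 CPM), of which 4.65% were called, and 10 and 6 among the 9685 least abundant, of which 0.165% were called.

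Among the risers, 38 had a control mean under 1 CPM and 5 of these had 0 counts in all control libraries. Their heat-stress means ran from 0.651 to 336 CPM, with a median of 9.03, and 17 of the 38 reached at least 10 CPM. These 38 were thus little detected in control and covered a wide range of levels in heat stress.

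Genes were named by size of change, in each direction, from 665 called genes that averaged 10 CPM or more in the higher group and whose libraries did not overlap. They were limited to 2 rises and 2 falls because IDs come without names. GLYMA_14G063700 had 0 counts in each control library and 94.9, 21.2 and 26.4 CPM in heat-stress replicates 1, 2 and 3. Replicate 1 was well above the other two, and all heat-stress libraries stood above control. Against the highest control floor of 3 counts in a library (0.154 CPM), the heat-stress mean of 47.5 ± 41.1 CPM (SD, n = 3) was at least 309-fold higher (edgeR adjusted p = 0.00937). The call was lost in limma-voom (adjusted p = 0.288) and in the edgeR fit of only the 6 libraries (adjusted p = 0.101). The next ID in number was also a riser, of more than 16-fold.

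GLYMA_10G176400 stood at 0.0379, 0.513 and 0.601 CPM in control replicates 1, 2 and 3, which together held 24 counts, and at 452, 237 and 319 CPM in the heat-stress replicates. All 3 heat-stress libraries were high and the groups lay far apart. The mean of 336 ± 109 CPM was 875-fold above the control mean of 0.384 ± 0.303 CPM (SD, n = 3 each), a log2 change of 9.84 with an SE of 0.59 (edgeR adjusted p = 1.42e-05). It was called in each of 24 alternatives. The authors' FPKM, which scales by gene length, gave 0.0386 to 0.417 in control and 242 to 431 in heat stress for this gene, and 0 in control and 41.6 to 173 in heat stress for GLYMA_14G063700.

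GLYMA_17G008500 fell from 17.3, 20.3 and 31.8 CPM in the control replicates to 2.65, 2.60 and 0.431 CPM in the heat-stress replicates. Heat-stress replicate 3 was the lowest, with 8 counts, and the groups did not overlap. The mean of 1.89 ± 1.26 CPM was 12.2-fold below the control mean of 23.1 ± 7.66 CPM (SD, n = 3 each), a log2 change of -3.61 with an SE of 0.57 (edgeR adjusted p = 0.00630). GLYMA_07G048600 fell from 45.5, 43.5 and 32.6 CPM to 5.91, 1.65 and 12.2 CPM. Its means were 40.5 ± 6.95 and 6.58 ± 5.29 CPM (SD, n = 3 each), 6.16-fold apart (log2 change -2.62, SE 0.55, edgeR adjusted p = 0.0487). That call lay near the threshold and was lost in 15 of 24 alternatives, with adjusted p values up to 0.206. The highest heat-stress library (12.2 CPM) nevertheless stood below the lowest control library (32.6 CPM).

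**Figure D2:**
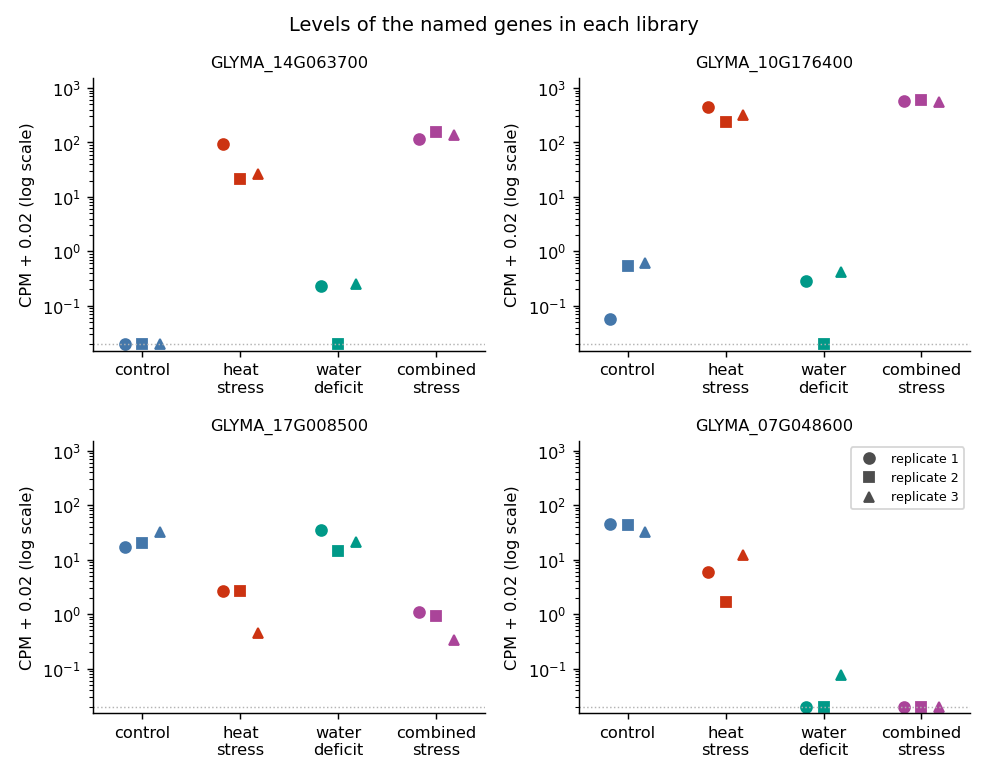
Each panel shows 1 named gene, with a point per library (shape gives the replicate) and CPM plus 0.02 on a log axis, so that a library at 0 counts lies on the dotted line. The heat-stress points of the 2 risers stand above all control points, those of the 2 fallers below, and GLYMA_07G048600 is at or near 0 in all 6 libraries from plants with low water.

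In the libraries from plants with low water the same genes behaved in 2 ways. GLYMA_14G063700 and GLYMA_10G176400 stood at 0.146 ± 0.127 and 0.221 ± 0.204 CPM in water deficit and at 136 ± 21.7 and 576 ± 34.6 CPM in combined stress (SD, n = 3 each), and both differed between those groups (edgeR adjusted p = 0.00142 and 3.40e-06). GLYMA_17G008500 likewise fell from 23.1 ± 10.2 to 0.754 ± 0.387 CPM (SD, n = 3 each, edgeR adjusted p = 0.000293). GLYMA_07G048600 had at most 1 count in any of these 6 libraries, at either temperature. The interaction test, which asks whether the effect of temperature differed with water supply, did not pass for the first 3 of these genes (edgeR adjusted p from 0.605 to 0.842). For GLYMA_07G048600, with 1 count in all at low water, there was no temperature effect there to compare.

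A few transcripts carried much of the gain in counts. The 438 risers took 3.49%, 3.10% and 3.01% of the counts in control replicates 1, 2 and 3 and 9.25%, 6.97% and 7.30% in the heat-stress replicates. The 296 fallers took 3.28%, 3.33% and 3.34% in control and 1.80%, 1.97% and 1.87% in heat stress. These genes were called on the same libraries, so the shares describe the calls and carry no test. The 95% Wilson intervals of these shares were within 0.0127 percentage points. They cover counting error alone and treat the counts as independent. PCR copies of a molecule were not marked and most low counts were even, so the intervals may be too narrow. Of the summed gain of the risers, 3 genes contributed 40.4% and 10 genes 55.4%, whereas the 10 largest losses made up 30.6% of the summed loss of the fallers.

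The gene with the largest gain was also the one with most counts in every heat-stress library. It stood at 9431, 6780 and 6191 CPM in the control replicates and at 23847, 16104 and 15891 CPM in the heat-stress replicates, a 2.49-fold rise (log2 change 1.32, SE 0.18, edgeR adjusted p = 0.000353). Heat-stress replicate 1 was the highest, and the lowest heat-stress library exceeded the highest control library. With low water the same gene stood at 9456 to 13023 CPM in water deficit and at 13062 to 13602 CPM in combined stress, a log2 change of 0.29. The interaction test on this gene did not pass (edgeR adjusted p = 0.115). The gene with the second largest gain rose 9.25-fold, from 403 to 944 CPM in control to between 4015 and 8203 CPM in heat stress. The one ranked next rose 17.5-fold, from 131 to 334 CPM to between 2367 and 5787 CPM (edgeR adjusted p = 0.00648 and 0.00518). In both, heat-stress replicate 1 stood well above replicates 2 and 3, which still exceeded every control library.

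**Figure D3:**
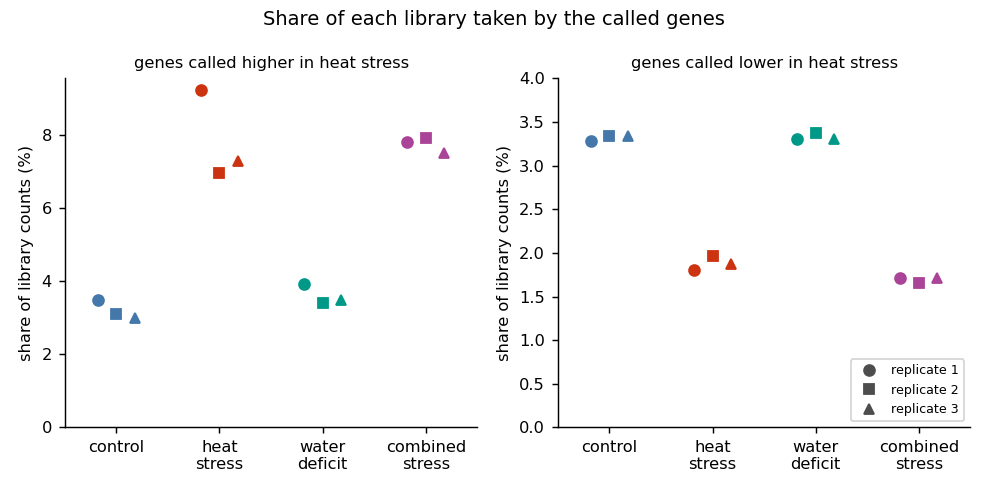
Points give the share of each library's counts, in percent, taken by the 438 genes called higher (left) and the 296 called lower (right) in heat stress against control, with both axes starting at 0. The combined-stress libraries, which entered the shared fit but not the contrast that called these genes, lie at 7.51 to 7.92% on the left and 1.66 to 1.71% on the right, beside water-deficit libraries at 3.41 to 3.92% and 3.30 to 3.37%.

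The genes called in heat stress were next followed in the 6 libraries with low water. These were not part of the contrast that called the genes, but they entered the same fit and so bore on its filter and its estimate of spread. Of the 438 risers, 427 had a higher estimate in combined stress than in water deficit. Of these, 326 (74.4% of the risers) were called higher, against 5.25% of all tested genes, and 0 risers were called lower. Of the 296 fallers, 291 had a lower estimate and 227 (76.7% of the fallers) were called lower, against 8.19% of all tested genes, while 1 was called higher. Over all tested genes the 2 estimates had the same sign in 64.9%. The median log2 change at low water was 1.06 for the risers and -0.98 for the fallers, beside 0.02 over all tested genes. Without water-deficit replicate 2, which had an unusually high share of even counts among its low counts (87.5%, beside 59.1 to 78.8% in the other libraries), 297 risers and 208 fallers were called in the same direction. A version that shared no library and no fit, chosen after the data were seen, took the heat calls from a fit of the 6 heat-stress and control libraries alone (425 of 36458 genes, 1.17%) and followed them in a fit of the 6 low-water libraries alone. Of its 302 risers, 229 (75.8%) were called higher at low water, against 6.25% of all genes tested there, and 0 were called lower. Of its 123 fallers, 93 (75.6%) were called lower, against 7.87%, and 0 were called higher.

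Of the 41 genes that rose more than 16-fold in watered pods by the fitted change, 38 were also called higher at low water. Of all tested genes 5.25% were. Of the 6 that fell that far by the fitted change, 1 was called lower, against 8.19%. Those 6 had control means of at most 2.34 CPM, and few genes at such levels were called in heat stress. The 38 and the 1 are therefore not comparable. The risers together took 3.61 ± 0.272% of the counts in water deficit and 7.74 ± 0.212% in combined stress, and the fallers 3.33 ± 0.0384% and 1.69 ± 0.0307% (SD, n = 3 each). In both cases the libraries of the groups did not overlap. For the 302 risers called from the 6 heat-stress and control libraries alone, the shares were 2.37 to 3.05% in water deficit and 6.07 to 6.39% in combined stress.

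**Figure D4:**
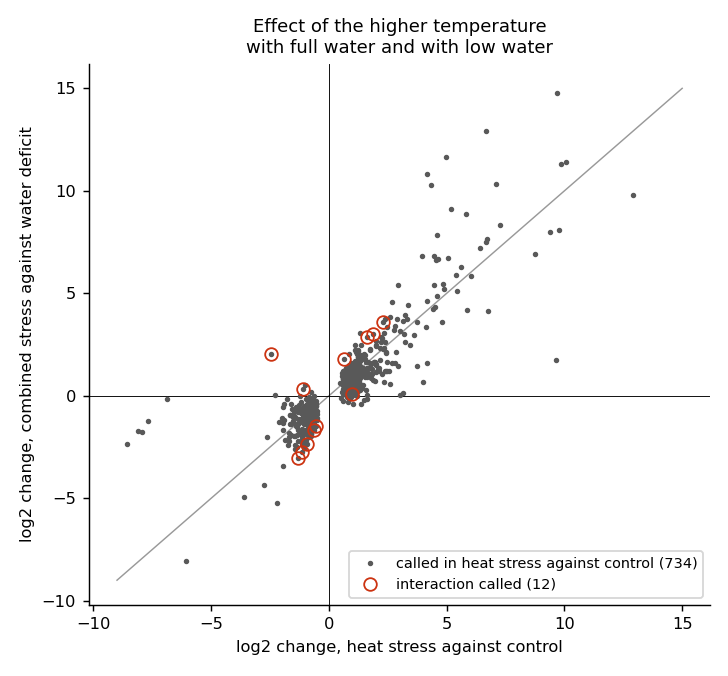
Each point is 1 of the 734 genes called in heat stress against control, placed by its log2 change there and by its log2 change in combined stress against water deficit, with the line of equal change. Risers lie mostly in the upper right and fallers in the lower left, and circles mark the 12 genes whose change differed between the water supplies.

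The size of the change differed with water supply for 12 of the 734 genes (1.63%, against 0.139% of all tested genes) by the interaction test. In 4 of 5 such risers the rise was larger at low water, and in 5 of 7 such fallers the fall was deeper. The interaction test contains the difference between heat stress and control by which the 734 were chosen. The 2 shares therefore describe the calls and carry no test. One riser of the 12 stood at 187 to 202 CPM in control and 370 to 397 CPM in heat stress, but at 170 to 206 CPM in water deficit and 185 to 206 CPM in combined stress. Its log2 change was 0.99 with full water and 0.07 with low water (interaction -0.92, SE 0.18, edgeR adjusted p = 0.0397). One faller changed direction, from 4.58 to 4.88 CPM in control and 0.215 to 1.37 CPM in heat stress to 2.64 to 6.56 CPM in water deficit and 10.0 to 26.4 CPM in combined stress (edgeR adjusted p = 0.0166 for the interaction). Both were picked out after their values were seen. The number of such genes was not stable: leaving out 1 library gave between 0 and 22.

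Within the heat-stress group, replicate 1 stood apart in the genes called higher. It was the highest of the 3 in 293 of the 438 risers (66.9%), against 37.5% of all tested genes, and in 34 of the 41 that rose more than 16-fold. The same library was the lowest of the 3 in 140 of the 296 fallers (47.3%), against 36.9% of all tested genes. The median riser stood 1.31, 0.96 and 1.04 above the control mean on the log2 scale in heat-stress replicates 1, 2 and 3, and the median faller stood at -0.96, -0.76 and -0.91. Among the fallers, replicates 1 and 3 thus lay close together. All these genes were called on the same libraries, so the positions carry no test. Without heat-stress replicate 1, 624 genes were called (336 higher, 288 lower), of which 464 were among the 734.

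A second set of genes was called in combined stress against water deficit in a fit of those 6 libraries alone, so that no heat-stress or control library entered the calls. For the 2287 genes raised there, the median position was 0.36, 0.47 and 0.34 above the control mean in heat-stress replicates 1, 2 and 3. For the 2878 lowered there, it was -0.29, -0.36 and -0.32. In both sets replicate 2 lay farthest from control. For the 355 genes that rose more than 4-fold there, the positions were 1.22, 1.18 and 0.85, and for the 121 that fell more than 4-fold they were -0.96, -0.87 and -0.70, with replicate 1 the farthest in both. The order of the heat-stress libraries thus differed between the whole sets and the genes with the larger changes, and all 3 libraries lay on the side of the change in each set. The 3 control libraries lay between -0.07 and 0.06 for the 2287 genes raised. The combined-stress libraries lay at 0.86, in genes that were called on them.

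**Figure D5:**
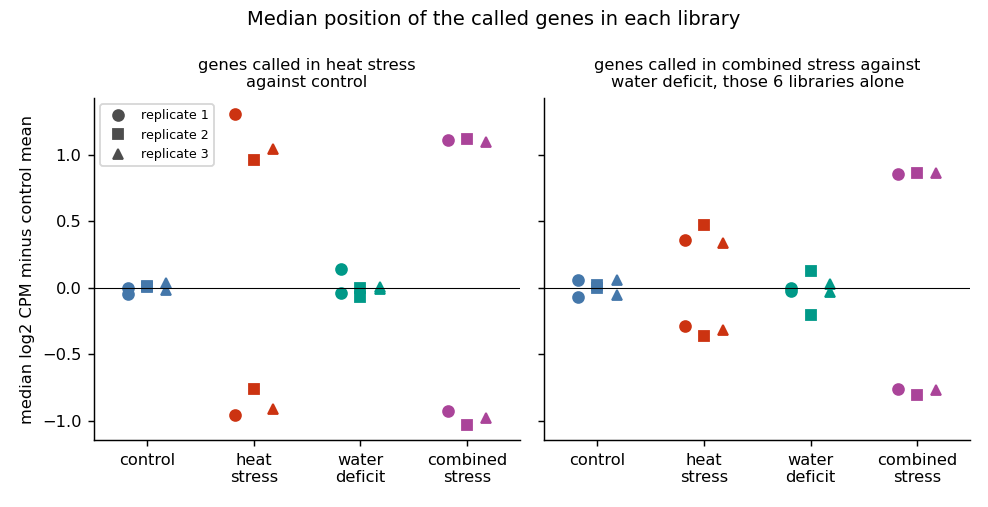
Points show, for each library, the median over genes of log2 CPM minus the control mean, with genes called higher above the line and genes called lower below it. On the left the genes were called in heat stress against control. There, above the line, heat-stress replicate 1 (1.31) is apart from replicates 2 and 3. On the right the genes were called in combined stress against water deficit in a fit of those 6 libraries alone. Above the line the 3 heat-stress libraries lie at 0.34 to 0.47 there.

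Some strong risers carried ID numbers close together. In these IDs the digits before the G give the chromosome and those after it follow the order of genes along it, by the naming convention of soybean genes. Of the 40 genes with such a number that rose more than 16-fold, 13 (32.5%) had another within 10 IDs, in 4 groups, whereas 1.18% of all tested genes with such a number lay that close to one of them. One group held 4 such genes among 9 consecutive IDs on chromosome 13, where 5 of 8 tested genes were risers. Another held 4 among 8 consecutive IDs on chromosome 7, where 5 of 6 tested genes were risers. The next held 3 among 4 IDs on chromosome 8, where all 3 tested genes were risers, and the last was GLYMA_14G063700 with the ID that follows it. No faller lay within these spans, which hold few tested genes, and fallers were 0.764% of all tested genes. Over all risers, 84 of 438 (19.2%) had another riser within 10 IDs, and 39 of 296 fallers (13.2%) had another faller. Of all tested genes, 14.3% had a riser and 10.7% a faller that close, and no test was made of the difference. The groups were picked out after the values were seen. The treatment of reads that match several similar copies is not given in the sources used here, so the levels of single genes in such groups are uncertain.

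Across chromosomes the share of tested genes called ran from 1.48% on chromosome 13 to 3.19% on chromosome 16, where 34 genes rose and 12 fell, beside 1.89% over all tested genes. No test was made of these shares. Of the 1250 deposited IDs of the ENSRNA type, 87 were tested, of which 1 rose and 0 fell.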

How the data were processed

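RNA of pooled pods was sequenced in 12 libraries, per the labels. The authors deposited whole-number read counts per gene and FPKM (fragments scaled by gene length and library size), 1 column per library. HISAT2 2.2.1 is named in the submitters' processing notes. The counting tool, strand setting, annotation and genome build are not given in the sources used here. FPKM entered only an alternative test and the values printed for 2 genes.

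Counts were fitted with edgeR 4.0.16 (R 4.3.3): TMM scaling, its group-wise filter on low counts (38737 of 57147 IDs kept), robust quasi-likelihood, 4 group means over 12 libraries, and Benjamini-Hochberg adjustment within each comparison. The SE is the log2 change divided by the square root of F, and is approximate. Medians of log2 CPM used a prior count of 2. The script was tested on simulated counts. Gene lists planned by description (heat shock proteins, hormones, storage proteins, tissue markers and others) were not run because no ID matched a name. Named genes follow the rule stated beside them. The comparison, rule and lists were chosen with earlier results of these data known. No 2 replicates were close enough to be one library deposited again (chi-square per degree of freedom from 10.0 to 35.6 over 6 pairs).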

Additional observations from a re-analysis of the deposited data

Results flagged for a closer look

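The effect of temperature differed between watered pods and pods with low water for 12 of the 734 genes called in heat stress, by edgeR's interaction test at an adjusted p under 0.05. At an unadjusted p under 0.05 there were 205 of the 734, and the share of all tested genes at that threshold is not given here. The 734 were chosen by a difference that the interaction test contains, so the 205 carry no test. Of the 12 genes, 9 changed more at low water (4 risers and 5 fallers), 1 riser and 1 faller did not pass the test of temperature at low water (log2 changes 0.07 and 0.32), and 1 faller was higher at the higher temperature there (log2 change 2.05). The cause was not tested.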

How the results depend on the processing

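The 734 heat calls became 1434 in DESeq2, 432 in limma on log2(FPKM + 0.1), 425 with only the 6 libraries, 267 at an adjusted p under 0.01 and 361 with an absolute log2 change of at least 1. Leaving out 1 library gave 265 (without control replicate 2) to 1022 (without water deficit replicate 2). With the replicate number as a block, 599 were called, 576 of them among the 734. Same-numbered control and heat-stress libraries did not deviate together (correlations -0.06, 0.01 and -0.05). No control library correlated best with the heat-stress library of its own number. Halved counts, chosen after the data were seen because most low counts were even, gave 813. The 5207 calls of combined stress against water deficit ranged from 3008 to 6484 over the left-out libraries. The heat risers called higher there (326) ranged from 283 to 344 and the fallers called lower (227) from 189 to 241. The 12 interaction calls became 19 with no filter, 51 in DESeq2, 2 in limma on log2(FPKM + 1) and 0 on log2(FPKM + 0.1), where 161 had an unadjusted p under 0.05. The interaction calls ranged from 0 (edgeR, at least 161 at an unadjusted p under 0.05) to 22 when 1 library was left out. No share over all tested genes is given beside these unadjusted counts. The direction of each named gene held in all of its 24 alternatives. Of the 96 results over the named genes together, 17 lost the call, 15 of them for GLYMA_07G048600. Where a library was left out, fewer samples were tested and the filter was rerun. The cause of the other changes was not tested. The comparisons of gene lists were not run.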
